A study of Mus musculus with 24 samples.

Results

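The genes of the mitochondrial genome were examined in E14 mouse embryonic stem cells (mESCs) on soft and stiff hydrogels. They were chosen as the rows of both count tables whose gene symbol starts with mt-. There were 37 such genes in each table, of 35022 genes in the table of PD03 removal and 48709 in that of CHIRON removal. In the annotation 13 of them are mRNA genes, 2 are rRNA genes and 22 are tRNA genes, and the 3 classes were described apart.

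The cells (wild type, labelled 129m) were grown for 12 h on fibronectin-coated StemBond hydrogels, polyacrylamide gels that tether matrix proteins stably, in 2i + LIF. This medium held PD03 at 1 µM, which inhibits the kinase MEK upstream of ERK, and CHIRON at 3 µM, which inhibits the kinase GSK3 and so activates Wnt signalling. Control cells stayed in 2i + LIF (0 h), and the others were lysed 2 h or 12 h after the loss of PD03, in CHIRON + LIF, or after the loss of CHIRON, in PD03 + LIF. No group kept in 2i + LIF is labelled 2 h or 12 h, so the loss of an inhibitor and added time in culture cannot be told apart. Each of the 2 experiments had 6 groups of substrate and time with 2 libraries each, 24 in all, and all came from 1 cell line. Nothing in the labels says that the 2 libraries of a group came from separate cultures, so the p-values measure the spread between these libraries, which may be technical.

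In mammals the mitochondrial genome is a small circle that encodes subunits of the respiratory chain and ATP synthase, together with the rRNAs and tRNAs that translate them inside the organelle. Both strands are transcribed from few promoters into long precursor RNAs, which are cut into single RNAs largely at the tRNAs that lie between the other genes. All proteins for this transcription, processing and translation come from the nucleus, and naïve mESCs are known to use oxidative phosphorylation beside glycolysis.

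On GRCm38 (mm10) the genes fill most of chrM, with 12 of the 13 mRNA genes, both rRNA genes and 14 tRNA genes on the plus strand. mt-Nd6 and 8 tRNA genes lie on the minus strand. The tRNA genes for which a change with time passed the test in either experiment are shown first, as the annotation gives their transcripts on GRCm38 (GENCODE), with the anticodon in capitals. mt-Tl1 (chrM:2676-2750) carries leucine and lies between mt-Rnr2 and mt-Nd1, mt-Tm (chrM:3845-3913) carries methionine and lies directly before mt-Nd2, and mt-Tt (chrM:15289-15355) carries threonine and lies directly after mt-Cytb.
mt-Tl1: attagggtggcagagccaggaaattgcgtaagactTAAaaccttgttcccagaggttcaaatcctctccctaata
mt-Tm: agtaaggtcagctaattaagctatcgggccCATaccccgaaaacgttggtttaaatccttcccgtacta
mt-Tt: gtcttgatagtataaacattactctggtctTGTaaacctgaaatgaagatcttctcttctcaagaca

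Several mitochondrial genes overlap, and whether reads were counted by strand is not given in the sources used here. The end of mt-Atp8 is shown with the 43 bases that also begin mt-Atp6 in capitals (chrM:7927-7969), and the end of mt-Nd4l with the 7 bases that also begin mt-Nd4 in capitals (chrM:10167-10173), since counts of these pairs are uncertain. mt-Nd5 and mt-Nd6 overlap by 14 bases on opposite strands, so their reads there cannot be told apart without strand.
mt-Atp8: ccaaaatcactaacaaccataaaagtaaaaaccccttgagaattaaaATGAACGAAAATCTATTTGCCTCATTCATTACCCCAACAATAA
mt-Nd4l: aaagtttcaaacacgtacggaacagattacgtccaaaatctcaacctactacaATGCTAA

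Of 13 mRNA genes, 7 were also matched over most of a pseudogene's length by pseudogenes of the nuclear genome that the tables count as genes of their own. On chromosome 1 the transcripts of Gm28661, Gm28437, Gm28439, Gm10222 and Gm10925 were identical over 681, 783, 876, 294 and 678 aligned bases to mt-Co2, mt-Co3, mt-Nd4, mt-Nd4l and mt-Atp6. Gm28438 differed from mt-Nd3 at a single base of 345, and Gm29216 from the 3′ part of mt-Co1 at a single base of 483. The start of mt-Nd3 is shown beside that of Gm28438 (chr1:24612775-24613119, minus strand), with the differing base in capitals; the substitution is T3C, counted from 1 at the first base of mt-Nd3.
mt-Nd3: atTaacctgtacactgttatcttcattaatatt
Gm28438: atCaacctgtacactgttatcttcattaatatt

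The counts of these pseudogenes followed those of the mitochondrial genes closely. The ratio of Gm28438 to mt-Nd3 counts was between 0.983 and 1.03 in the 12 libraries of PD03 removal and between 0.970 and 1.03 in 11 libraries of CHIRON removal, and that of Gm28437 to mt-Co3 was between 0.991 and 1.01 and between 0.980 and 1.01. Gm28661 stood at 0.943 to 1.01 times mt-Co2, Gm10925 at 1.08 to 1.13 times mt-Atp6 and Gm10222 at 0.854 to 1.23 times mt-Nd4l over both experiments. Shorter or less alike copies held less: Gm28439 stood at 0.432 to 0.552 times mt-Nd4, Gm29216 at 0.136 to 0.316 times mt-Co1, and on chromosome 2 Gm13340 (97.6% identical) at 0.144 to 0.211 times mt-Co1 and Gm13341 (95.9% identical) at 0.135 to 0.216 times mt-Co2. Reads of identical copies cannot be assigned to one of them, so values of mt-Co1, mt-Co2, mt-Co3, mt-Atp6, mt-Nd3, mt-Nd4 and mt-Nd4l are uncertain, whereas mt-Nd1, mt-Nd2, mt-Nd5, mt-Nd6 and mt-Cytb were aligned by none of the pseudogenes searched. mt-Atp8 was matched only in the 43 bases that it shares with mt-Atp6, which Gm10925 holds too. Of the other 2 pseudogene symbols on the list, no alignment to a mitochondrial gene was found for Gm8871, and Gm10924 was not analysed here.

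Total counts per library were between 16222196 and 26442153 after PD03 removal and between 19393787 and 31111260 in 11 libraries of CHIRON removal. The first stiff library at 2 h of CHIRON removal held 171333 counts, was discarded by the study and is left out, so that group rests on 1 library, which the fit assumes to vary like the other groups. The biological coefficient of variation was 0.0433 and 0.0951, and the counts of replicates had a chi-square per degree of freedom of 2.78 to 4.93 and of 6.35 to 65.3, where 1 would be counting noise alone. The 65.3 was that of the soft libraries at 12 h of CHIRON removal, and the next highest was 25.7, for its stiff libraries at 0 h. All 8 markers of mESCs on the list (among them Pou5f1, Sox2 and Nanog) were counted, at a sum of 4144 to 5384 CPM (counts-per-million) over all times, against 6.28 to 21.9 for 6 fibroblast genes and 0.815 to 5.26 for 6 endoderm genes. In these bulk samples, fewer cells of a type and less RNA per cell cannot be told apart.

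At 0 h the 2 experiments differed in which mitochondrial RNAs made up the counts, although both were in 2i + LIF. The rRNA genes took 5.09% to 6.27% of all counts at 0 h of PD03 removal and 0.153% to 0.214% at 0 h of CHIRON removal. For the mRNA genes these shares were 0.602% to 0.759% and 2.19% to 3.88%. rRNA was thus the larger class in every library of PD03 removal, and mRNA in every library of CHIRON removal.

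Per kilobase and at 0 h, mt-Co3 and mt-Co1, subunits of cytochrome c oxidase, were the highest mRNAs of PD03 removal, with mean levels of 1937 and 1676 normalised CPM per kilobase over 4 libraries (CPM on TMM library sizes). Next came mt-Nd3 at 708, mt-Atp6 at 593, mt-Nd1 at 467 and mt-Co2 at 458. mt-Atp8 and mt-Nd4l were the lowest, at 33.5 and 30.8. The libraries of mt-Co3 (1791 to 2163) and mt-Co1 (1532 to 1978) overlapped, as did those of mt-Nd1 (404 to 551) and mt-Co2 (409 to 552) and those of mt-Atp8 (24.2 to 43.5) and mt-Nd4l (26.4 to 37.9).

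In CHIRON removal the order on the same scale was another. mt-Nd1, a membrane subunit of complex I, led with a level of 6544 normalised CPM per kilobase, followed by mt-Atp8 at 5588, mt-Co1 at 4711 and mt-Cytb, the subunit of complex III, at 4218. mt-Co3 stood at 868, mt-Nd3 at 533 and mt-Nd6 at 468, the lowest. The libraries of the 4 highest genes overlapped (3852 to 8002 for mt-Nd1 and 3050 to 5079 for mt-Cytb). The tables were made and normalised separately and each experiment was 1 set of libraries, so the experiment, its libraries and its table cannot be told apart, and no test was made between them.

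As shares of the counts of the 13 mRNA genes, mt-Co3 took 16.7% to 25.1% over the libraries of PD03 removal and 1.95% to 2.64% over those of CHIRON removal. mt-Atp8 took 0.0652% to 0.139% and 3.12% to 3.92%, and mt-Nd4l 0.113% to 0.186% and 2.08% to 2.44%. These shares did not overlap between the experiments. mt-Atp8 held 0.00989 to 0.0211 times the counts of mt-Atp6, with which it shares its transcript, in PD03 removal and 0.618 to 0.840 times in CHIRON removal. The closest shares were those of mt-Nd6, at 0.395% to 0.676% and 0.630% to 0.895%, and mt-Co2, at 4.72% to 5.89% and 3.99% to 4.62%.

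**Figure D1:**
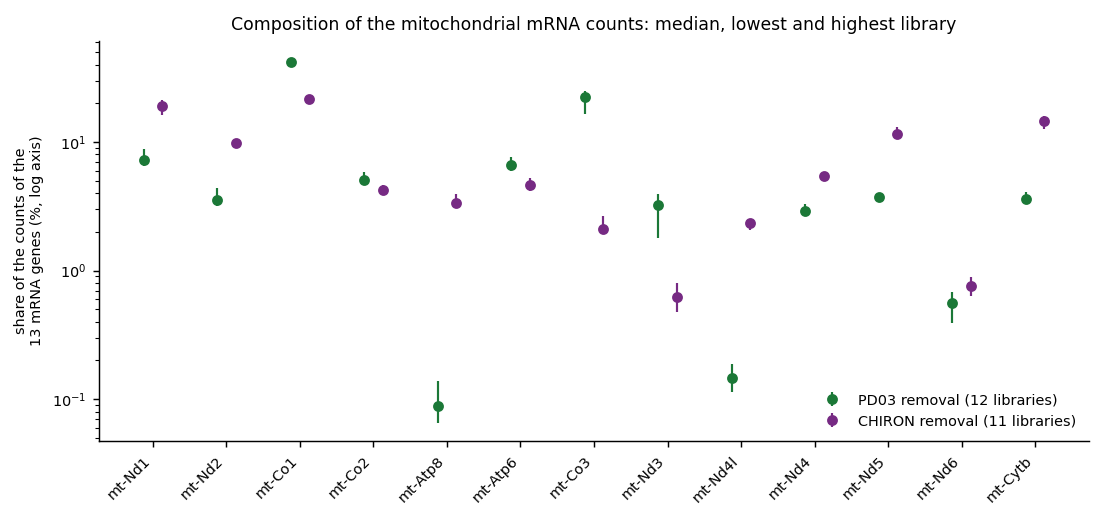
Share of the counts of the 13 mitochondrial mRNA genes taken by each gene (percent, log axis) in the order of the genome, with the median (point) and the lowest and highest library (bar) of each experiment. The medians of mt-Co1, mt-Co2, mt-Atp6, mt-Co3 and mt-Nd3 are higher in PD03 removal than in CHIRON removal, and those of the other 8 genes are lower.

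After PD03 removal most mitochondrial mRNAs and both rRNAs rose by 12 h on both substrates. Summed over the 13 mRNA genes, the normalised CPM of the soft libraries were 6400 and 5923 for 0 h, 7506 and 7488 for 2 h, and 10686 and 9967 for 12 h. The stiff libraries had 7499 and 5922 for 0 h, 8776 and 9062 for 2 h, and 12056 and 12839 for 12 h. Every 2 h library lay above every 0 h library of its substrate, and every 12 h library above every 2 h library. The first stiff library at 0 h lay near the soft libraries at 2 h.

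The rRNA genes moved alike, with summed CPM going from 51490 and 55722 to 91063 and 97123 between 0 h and 12 h on soft substrates, and from 49911 and 61887 to 107224 and 109189 on stiff ones. The tRNA genes, at 147 to 341 counts per library in all, went from summed CPM of 7.71 and 8.19 to 14.8 and 14.9 between 0 h and 12 h on soft substrates, and from 7.56 and 8.96 to 16.6 and 18.6 on stiff ones. None of these sums overlapped between 0 h and 12 h.

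Cell state markers moved over the same time. The summed CPM of the 8 mESC markers was 5294 to 5384 over the 0 h libraries, 5041 to 5310 at 2 h and 4188 to 4555 at 12 h, with 5 of 8 lower and 1 (Utf1) higher on each substrate by edgeR and the same numbers by DESeq2. That of 5 genes of primed or mesendodermal cells, among them T and Eomes, was at least 13.1 over the 0 h libraries. At 12 h it was 35.8 to 43.7, without overlap. Of 4 tested, 3 were higher on soft and 2 on stiff substrates by edgeR, and 2 on each by DESeq2. Fgf5, Pou3f1 and Mixl1 of this list had at most 1.88 CPM in any library. Of all genes tested, 12.3% fell and 11.2% rose on soft substrates at 12 h, and 16.4% fell and 15.5% rose on stiff ones by edgeR. The part of this change of state in the mitochondrial values was not tested.

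**Figure D2:**
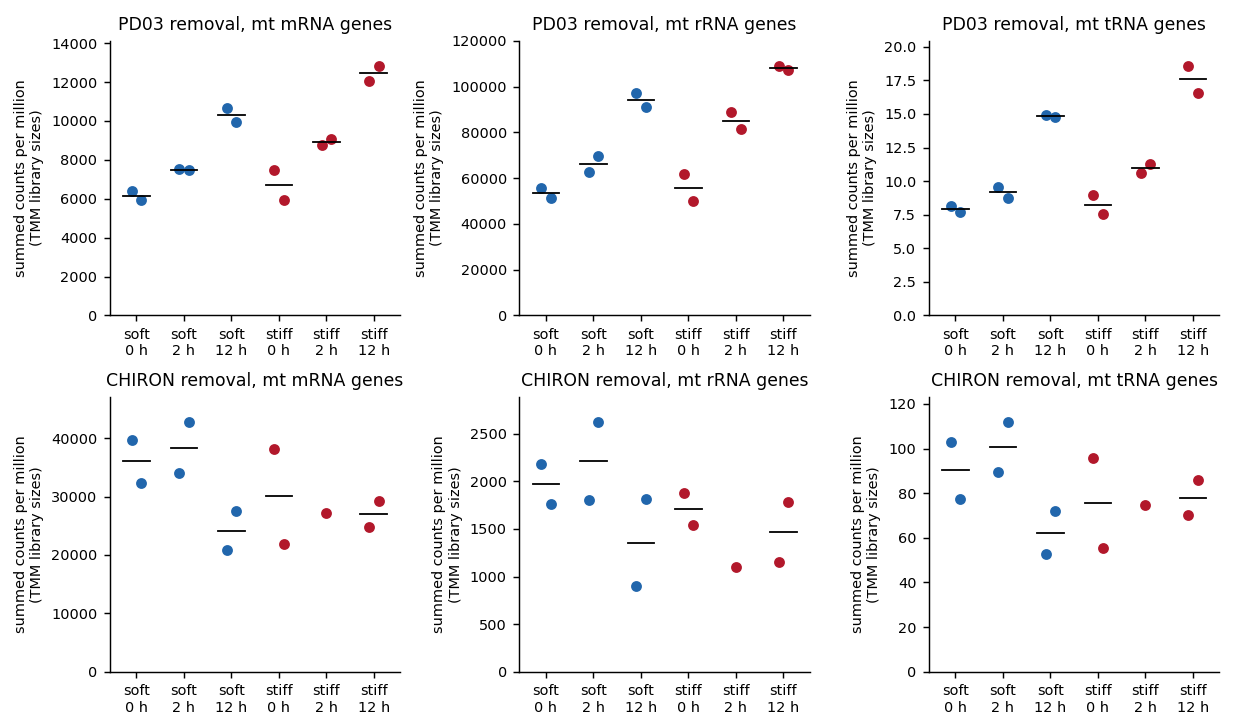
Summed CPM (TMM library sizes) of the mitochondrial mRNA, rRNA and tRNA genes in each library (points; soft in blue, stiff in red), with the mean of each group of 2 (line), against substrate and time. After PD03 removal all 3 classes are higher at 12 h than at 0 h, and after CHIRON removal the 2 stiff libraries at 0 h lie far apart (38193 and 21912 for mRNA).

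Tested gene by gene at 12 h on soft substrates, 10 of 13 mRNA genes and both rRNA genes rose (edgeR quasi-likelihood test, adjusted p under 0.05), where 11.2% of the 18493 genes tested rose. On stiff substrates 12 of 13 mRNA genes and both rRNA genes rose, where 15.5% of the genes tested did. No mitochondrial gene fell in either comparison, with 0 of them also by DESeq2 and with every mRNA and rRNA gene at an unadjusted p under 0.05 having a positive change. The median log2 fold change of the 13 mRNA genes was 0.89 on soft and 1.00 on stiff substrates, against -0.00 for all genes tested in both comparisons.

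Complex I, which takes electrons from NADH, has 7 subunits encoded here. Of these, 5 rose on soft and 6 on stiff substrates at 12 h. For mt-Nd1 (chrM:2751-3707), which has no listed nuclear copy, the soft libraries had 481 and 387 CPM for 0 h, 540 and 494 for 2 h, and 882 and 771 for 12 h. Its stiff libraries had 527 and 391, 625 and 659, and 1071 and 1097 CPM in the same order. The groups at 0 h and 12 h were far apart on either substrate, and its log2 fold change was 0.93 ± 0.09 (SE, n = 2 libraries per group; edgeR adjusted p = 4.51e-08) on soft and 1.24 ± 0.09 (adjusted p = 1.48e-10) on stiff substrates.

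mt-Nd2, another core subunit, rose by 0.94 ± 0.10 and 1.21 ± 0.10 on the log2 scale, mt-Nd4 by 0.88 ± 0.08 and 1.09 ± 0.08, and mt-Nd5 by 0.69 ± 0.07 and 0.84 ± 0.07 (soft and stiff, ± SE). mt-Nd4l rose by 1.11 ± 0.14 and 1.00 ± 0.14, from no more than 11.3 CPM at 0 h. These genes had adjusted p-values of at most 5.13e-06 in both comparisons.

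mt-Nd3, which encodes a small subunit of the same complex, did not pass the test in any comparison. Its soft libraries had 241 and 234 CPM for 0 h, then 248 and 234 for 2 h, then 243 and 234 for 12 h, and its stiff libraries 277 and 232, 295 and 268, and 278 and 228. The 0 h and 12 h libraries covered nearly the same range, and the log2 fold changes were 0.00 ± 0.07 (edgeR adjusted p = 0.987) and -0.01 ± 0.07 (adjusted p = 0.962). Within libraries, the ratio of mt-Nd3 to mt-Nd1 counts was 0.501 to 0.606 at 0 h, 0.407 to 0.472 at 2 h and 0.208 to 0.303 at 12 h, so the relative change did not rest on the scaling of the libraries.

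mt-Nd6, the mRNA gene of the minus strand, had soft libraries of 39.4 and 33.7 CPM for 0 h, then 43.2 and 39.4 for 12 h, where the change of 0.17 ± 0.11 did not pass the test (edgeR adjusted p = 0.262). Its stiff libraries went from 46.1 and 37.0 to 51.3 and 55.3 CPM, a rise of 0.37 ± 0.10 on the log2 scale (adjusted p = 0.00817). The stiff change was no longer called with DESeq2, without the second stiff library at 12 h, or without the second at 0 h (adjusted p = 0.235, the highest of 18 alternatives, the lowest being 4.89e-05).

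The single mitochondrial subunit of complex III, mt-Cytb (chrM:14145-15288), had soft libraries of 220 and 197 CPM for 0 h, 270 and 268 for 2 h, and 417 and 374 for 12 h. The stiff libraries had 256 and 203, 313 and 351, and 488 and 522 CPM. No library at 12 h overlapped one at 0 h, and mt-Cytb rose by 0.92 ± 0.08 on soft (edgeR adjusted p = 2.1e-09) and by 1.14 ± 0.08 on stiff substrates (adjusted p = 1.99e-11).

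The 3 mitochondrial subunits of complex IV, which reduces oxygen, all rose, by unequal amounts. mt-Co1, the catalytic subunit, went from 2522 and 2367 to 4631 and 4408 CPM between 0 h and 12 h on soft substrates, and from 3056 and 2412 to 5130 and 5630 on stiff ones. It rose by 0.89 ± 0.07 and 0.98 ± 0.07 on the log2 scale, and mt-Co2 rose by 0.95 ± 0.09 and 1.12 ± 0.09.

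mt-Co3 had soft libraries of 1490 and 1484 CPM for 0 h, 1703 and 1661 for 2 h, and 1917 and 1862 for 12 h. Its stiff libraries had 1696 and 1404, 1954 and 1799.7, and 2030.2 and 2138 CPM. Its libraries did not overlap between 0 h and 12 h, and it rose by 0.35 ± 0.06 (edgeR adjusted p = 0.000111) and 0.43 ± 0.06 (adjusted p = 4.09e-06). The ratio of mt-Co3 to mt-Co2 counts in a library was 4.49 to 5.26 at 0 h, 3.61 to 4.53 at 2 h and 2.86 to 3.43 at 12 h.

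Of the ATP synthase subunits, mt-Atp6, part of the proton channel, went from 420 and 355 to 760 and 682 CPM on soft substrates, and from 485 and 356 to 924 and 977 on stiff ones. It rose by 0.89 ± 0.09 and 1.18 ± 0.09 on the log2 scale. mt-Atp8 had few counts in this experiment, with soft libraries of 8.88 and 6.08 CPM for 0 h, then 8.13 and 9.53 for 12 h, which overlapped (0.23 ± 0.19, edgeR adjusted p = 0.418). Its stiff libraries went from 7.45 and 4.93 to 10.2 and 9.73 CPM, and it rose by 0.71 ± 0.20 (adjusted p = 0.00666), a call that ended by edgeR without the first stiff library at 12 h (adjusted p = 0.0507) and without the second at 0 h (adjusted p = 0.188, the highest of 18 alternatives, the lowest being 6.04e-05).

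**Figure D3:**
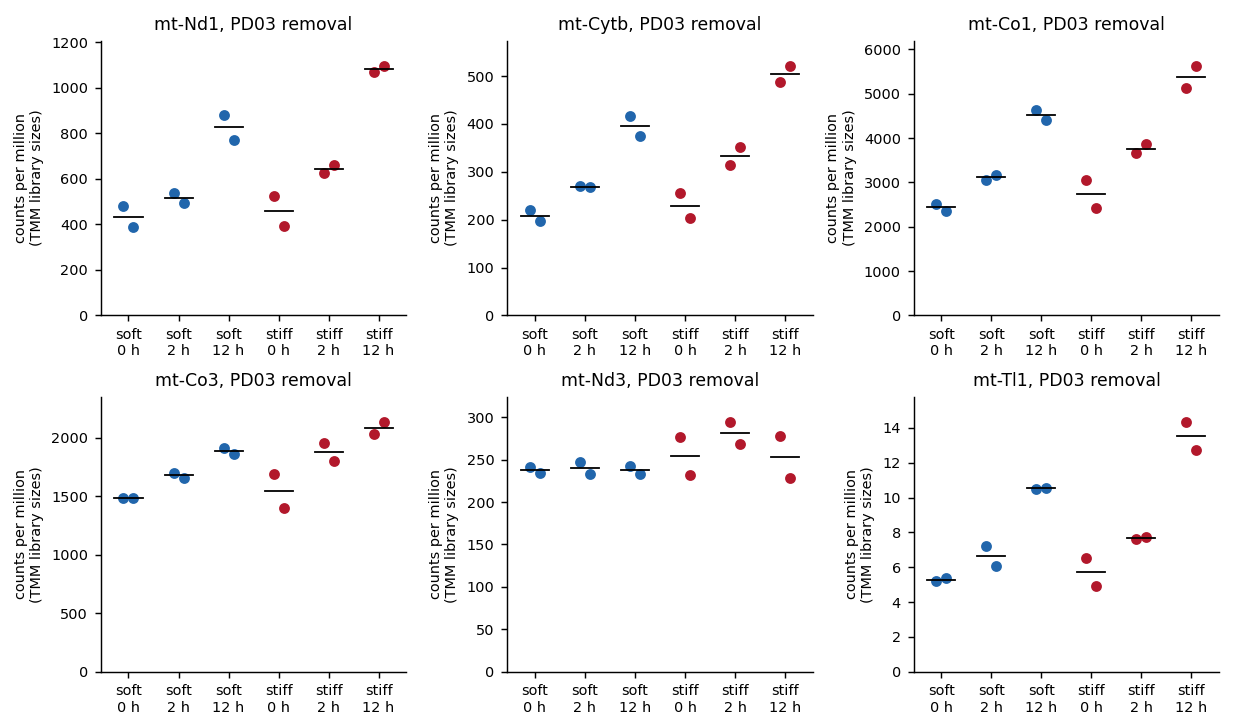
CPM (TMM library sizes) of mt-Nd1, mt-Cytb, mt-Co1, mt-Co3, mt-Nd3 and mt-Tl1 in each library of PD03 removal (points; soft in blue, stiff in red) with the mean of each group of 2 (line). mt-Nd1, mt-Cytb, mt-Co1 and mt-Tl1 climb at 12 h on both substrates, mt-Co3 climbs less, and mt-Nd3 lies between 228 and 295 in every group.

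The 16S rRNA of the large mitochondrial ribosomal subunit, mt-Rnr2 (chrM:1094-2675), was the most counted mitochondrial gene of this experiment. Its soft libraries had 49827 and 46204 CPM for 0 h, 56767 and 62785 for 2 h, and 87661 and 82572 for 12 h. The stiff libraries had 55477 and 45008, 80631 and 74040, and 99245 and 98044 CPM. The times did not overlap within a substrate, and mt-Rnr2 rose at 12 h by 0.83 ± 0.07 on soft (edgeR adjusted p = 8.7e-10) and 0.97 ± 0.07 on stiff substrates (adjusted p = 2.19e-11).

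The 12S rRNA of the small subunit, mt-Rnr1 (chrM:70-1024), rose at 12 h by 0.68 ± 0.08 and 0.76 ± 0.08 on the log2 scale, from 4903 to 6410 CPM over the 0 h libraries to 8490 to 9944 over the 12 h libraries. The labels name a kit that depletes ribosomal RNA, so these counts are of what the depletion left. The summed CPM of nuclear rRNA genes was 36.4 to 54.8 at 0 h, 33.3 to 52.1 at 2 h and 18.4 to 27.0 at 12 h, so the nuclear rRNA counts were lower at 12 h where the mitochondrial ones were higher. The part of the nuclear rRNA in the result was not tested.

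Of the tRNA genes, 5 passed the filter on low counts: mt-Tl1, mt-Tt, mt-Ti, mt-Tp and mt-Tq. mt-Tl1 held 71.5% of all tRNA counts of the experiment, at 102 to 263 counts per library. It went from 5.20 and 5.36 to 10.5 and 10.6 CPM between 0 h and 12 h on soft substrates, and from 6.51 and 4.93 to 14.3 and 12.7 on stiff ones, with no overlap of the times. It rose by 1.00 ± 0.15 (edgeR adjusted p = 1.41e-05) and 1.26 ± 0.14 (adjusted p = 1.29e-07). Beside it, mt-Nd1, the gene that directly follows, had 0.93 and 1.24. The ratio of mt-Tl1 to mt-Nd1 counts was 0.0108 to 0.0139 over all 12 libraries. In both experiments, reads of finished tRNAs and of uncut precursor RNAs cannot be told apart in the counts of tRNA genes.

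mt-Tt held 9 to 28 counts per library and was called on stiff substrates alone, going from 0.490 and 0.593 to 1.53 and 1.19 CPM (1.31 ± 0.41 on the log2 scale, edgeR adjusted p = 0.0158). On soft substrates its change was 0.95 ± 0.43 (adjusted p = 0.117), and the difference between substrates was not called. The stiff call of mt-Tt ended with DESeq2, without either stiff library at 0 h and without the first at 12 h (adjusted p of up to 0.148, the lowest of 17 alternatives being 0.00874). The other 17 tRNA genes of this experiment held between 1 and 84 counts summed over the 12 libraries and were not tested. The tests of mt-Ti, mt-Tp and mt-Tq rested on 2 to 16 counts per library and called none of them.

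At 2 h after PD03 removal fewer of these genes passed the test. On soft substrates mt-Co1 (0.35 ± 0.07, adjusted p = 0.00494), mt-Cytb (0.37 ± 0.08, adjusted p = 0.00996), mt-Co2 (0.35 ± 0.09, adjusted p = 0.0372), mt-Atp6 (0.35 ± 0.09, adjusted p = 0.0375) and mt-Rnr2 (0.32 ± 0.06, adjusted p = 0.00793) rose by edgeR. Of the 18493 genes tested, 0.784% rose, and 834 rose at an unadjusted p under 0.05. No complex I subunit was among the mitochondrial genes called, although 10 mRNA genes had an unadjusted p under 0.05. DESeq2 called none of them, and neither did edgeR without the second soft library at 0 h or the second at 2 h.

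On stiff substrates 9 mRNA genes and both rRNA genes rose at 2 h, where 1.25% of the genes tested rose. The mRNA changes that passed lay between 0.28 ± 0.06 for mt-Co3 and 0.54 ± 0.08 for mt-Cytb, and mt-Rnr2 rose by 0.62 ± 0.06 (edgeR adjusted p = 4.7e-07). mt-Nd3 (0.15 ± 0.07), mt-Nd4l (0.30 ± 0.15), mt-Atp8 (0.30 ± 0.20) and mt-Nd6 (0.38 ± 0.10) did not pass, the last with an adjusted p of 0.0521. DESeq2 called 3 mRNA genes and 1 rRNA gene, and edgeR called 3 and 1 without the second stiff library at 0 h and 5 mRNA genes without the second at 2 h.

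**Figure D4:**
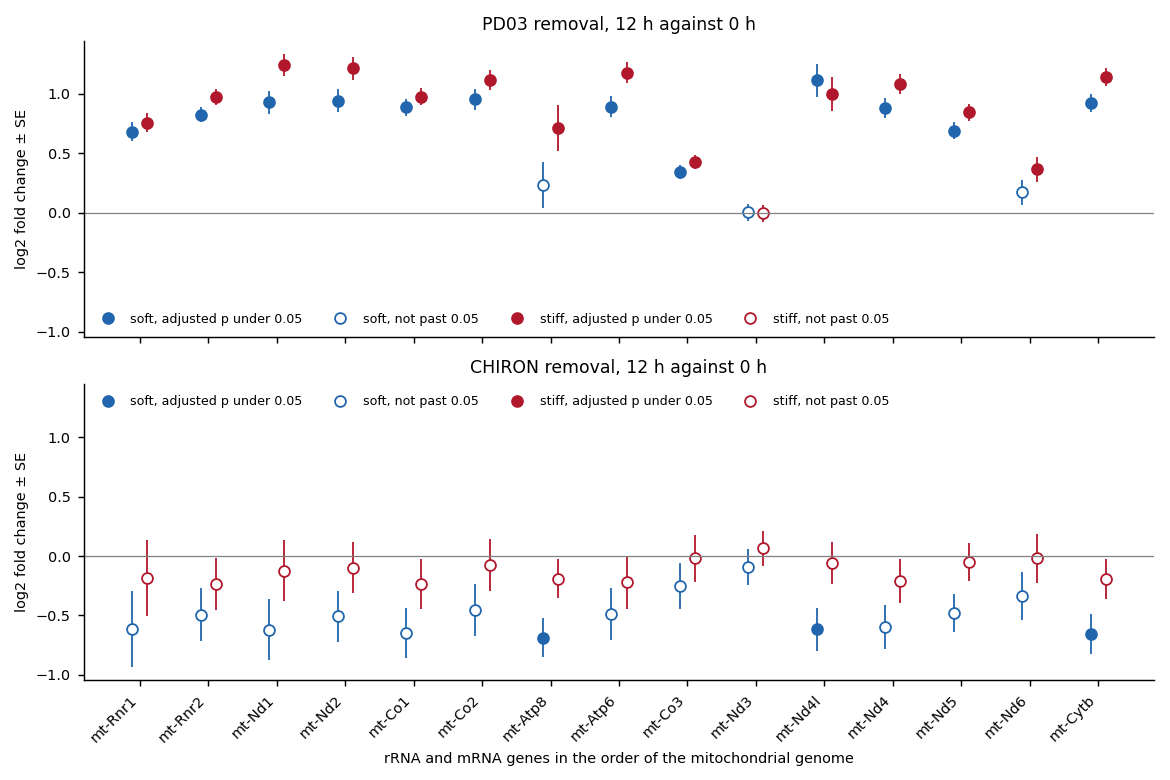
Log2 fold change at 12 h against 0 h (points, ± SE) of the rRNA and mRNA genes in the order of the genome, on soft (blue) and stiff (red) substrates, after PD03 removal (top) and CHIRON removal (bottom); filled points have an edgeR adjusted p under 0.05. After PD03 removal all points but those of mt-Nd3 lie above 0, and after CHIRON removal the soft points lie below 0 with mt-Atp8, mt-Nd4l and mt-Cytb filled.

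The substrates were then compared at each time of PD03 removal. At 0 h no mitochondrial gene differed by edgeR or DESeq2, with 2 at an unadjusted p under 0.05, where 0% of the genes tested were called in either direction. At 2 h the log2 differences (soft minus stiff) of all 13 mRNA genes were negative, with a median of -0.27. At an unadjusted p under 0.05 there were 11 mRNA genes and both rRNA genes, and 767 of the 18493 genes tested were lower at that level. Only mt-Rnr2 was called lower on soft substrates, with a log2 difference of -0.37 ± 0.06 (edgeR adjusted p = 0.0144), where 0.0649% of the genes tested were lower. This call was absent with DESeq2 and without the first soft or the first stiff library at 2 h.

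At 12 h mt-Nd2 (-0.43 ± 0.10, adjusted p = 0.0408), mt-Atp6 (-0.40 ± 0.09, adjusted p = 0.0284), mt-Cytb (-0.35 ± 0.07, adjusted p = 0.0271) and mt-Nd5 (-0.31 ± 0.07, adjusted p = 0.044) were called lower on soft substrates by edgeR, where 0.265% of the genes tested were lower. For mt-Nd2 the CPM were 422 and 372 on soft and 525 and 541 on stiff substrates, which did not overlap. The median difference of the 13 mRNA genes was -0.31, against -0.00 for all genes. DESeq2 called none of the 13, and none was called by edgeR when any 1 of the 4 libraries compared was left out.

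The response itself was not shown to differ between the substrates. The difference in response (soft minus stiff) of the mRNA genes at 12 h was between -0.48 for mt-Atp8 and 0.12 for mt-Nd4l, with a median of -0.19. For mt-Nd1 it was -0.31 ± 0.13 (edgeR adjusted p = 0.758) and for mt-Atp6 -0.28 ± 0.12 (adjusted p = 0.784), the 2 with an unadjusted p under 0.05. No mitochondrial gene was called at 2 h or 12 h by edgeR or DESeq2, where 0.00541% and 0% of the genes tested were called; at 2 h both rRNA genes had an unadjusted p under 0.05.

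After CHIRON removal the mitochondrial mRNAs varied more between replicates and few changes passed the test. Their summed CPM in the soft libraries were 39675 and 32338 for 0 h, 33955 and 42777 for 2 h, and 20813 and 27471 for 12 h. The stiff libraries had 38193 and 21912 for 0 h, 27162 for the single library of 2 h, and 24843 and 29288 for 12 h. On soft substrates both 12 h libraries lay below both 0 h libraries, whereas on stiff substrates the 12 h libraries lay between those of 0 h. Beside this, the sum of the mESC markers was 4340 to 4510 CPM over the 0 h libraries and 4469 to 4622 at 12 h. Single markers moved both ways. By edgeR 2 of the 8 rose and 3 fell on soft substrates, and 5 rose and 2 fell on stiff ones. DESeq2 called 3 higher and 3 lower on soft, and 5 and 3 on stiff substrates. Of all genes tested, 5.86% rose and 4.59% fell on soft substrates, and 5.48% and 4.41% on stiff ones. The sum of the primed list was at least 17.9 CPM and then 10.9 to 13.2, with T the 1 gene of that list called lower on either substrate. The part of these markers was not tested.

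On soft substrates at 12 h, 3 of 13 mRNA genes and 1 of 16 tRNA genes tested fell, where 4.59% of the 21115 genes tested fell. mt-Atp8 had 1432 and 1141 CPM for 0 h, 1331 and 1440 for 2 h, and 729 and 871 for 12 h. Its 12 h libraries lay below the others, with a log2 fold change of -0.69 ± 0.17 (SE; edgeR adjusted p = 0.0142). mt-Cytb went from 5810 and 4586 to 3121 and 3464 CPM (-0.66 ± 0.17, adjusted p = 0.0184), and mt-Nd4l from 938 and 703 to 499 and 571 (-0.62 ± 0.18, adjusted p = 0.0372).

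The other mRNA genes had negative values on soft substrates that did not pass, from -0.65 ± 0.21 for mt-Co1 (edgeR adjusted p = 0.0621) and -0.62 ± 0.26 for mt-Nd1 (adjusted p = 0.163) to -0.25 ± 0.20 for mt-Co3 and -0.09 ± 0.15 for mt-Nd3. Between them lay mt-Nd4 at -0.60, mt-Nd2 at -0.51, mt-Atp6 at -0.49, mt-Nd5 at -0.48, mt-Co2 at -0.45 and mt-Nd6 at -0.34. The median of the 13 was -0.51, against -0.00 for all genes tested. mt-Nd3 and mt-Co3 were nearest to 0 here, as they were after PD03 removal among the genes with over 100 CPM.

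mt-Tm, shown above with its anticodon, was the tRNA gene called lower on soft substrates at 12 h, from 23.6 and 16.9 to 10.6 and 13.5 CPM (-0.76 ± 0.22, edgeR adjusted p = 0.0385). It held 256 to 589 counts per library. mt-Tl1 held 649 to 1418, 52.9% of all tRNA counts, and went from 55.2 and 41.0 to 28.1 and 36.8 CPM, without overlap, but its change of -0.57 ± 0.22 did not pass (adjusted p = 0.121). mt-Tl2, mt-Te, mt-Ti and mt-Tw came next with 549 to 1434 counts summed over 11 libraries, and the 6 tRNA genes that did not pass the filter had 4 to 65.

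The calls on soft substrates at 12 h were not stable, and the soft 12 h libraries had the highest chi-square per degree of freedom (65.3). DESeq2 called 0 of these mRNA and tRNA genes, as did edgeR without the first soft library at 0 h or the first at 12 h, and with the discarded library added. When only protein-coding genes were fitted, 6 mRNA genes were lower, and without the second stiff library at 0 h 9 were. The rRNA genes, with summed CPM of 2183 and 1761 for 0 h and 900 and 1809 for 12 h in the soft libraries, overlapped between the times (mt-Rnr2 -0.49 ± 0.22, edgeR adjusted p = 0.197; mt-Rnr1 -0.61 ± 0.32, adjusted p = 0.276).

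**Figure D5:**
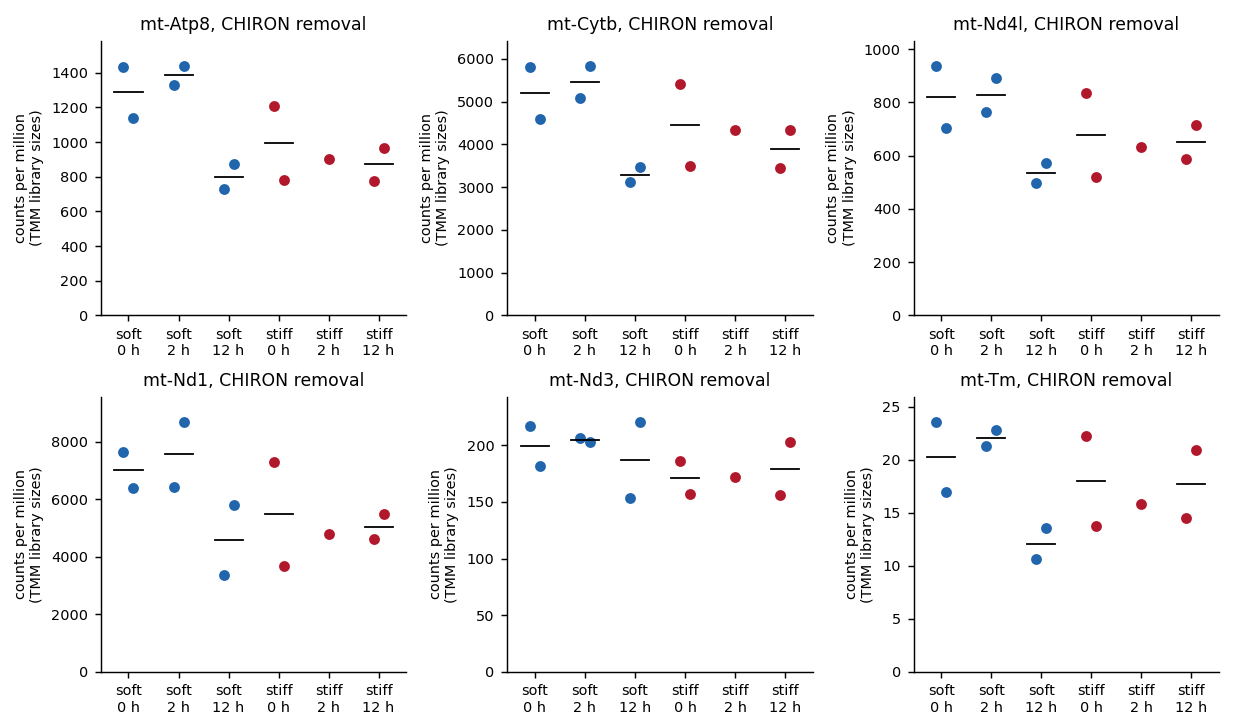
CPM (TMM library sizes) of mt-Atp8, mt-Cytb, mt-Nd4l, mt-Nd1, mt-Nd3 and mt-Tm in each library of CHIRON removal (points; soft in blue, stiff in red) with the mean of each group of 2 (line); stiff at 2 h has 1 library. The soft 12 h libraries lie below the soft 0 h libraries for mt-Atp8, mt-Cytb, mt-Nd4l, mt-Nd1 and mt-Tm, and the 2 stiff libraries at 0 h lie on either side of the stiff 12 h means.

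In the other comparisons of CHIRON removal edgeR and DESeq2 called no mitochondrial gene. The shares of all genes called were 0.114% for soft at 2 h against 0 h and 0.0379% for stiff at 2 h. For stiff at 12 h 5.48% of the genes tested rose and 4.41% fell, with no mitochondrial gene at an unadjusted p under 0.05. There mt-Atp8 (-0.19 ± 0.17), mt-Cytb (-0.19 ± 0.17) and mt-Nd4l (-0.06 ± 0.18) had 0 h libraries of 1208 and 779, 5414 and 3490, and 837 and 520 CPM, so the 0 h libraries of each gene lay far apart. At 2 h the unadjusted counts were 1 tRNA gene on soft and 1 rRNA gene on stiff substrates.

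Between soft and stiff substrates 0% of all genes tested were called at 0 h, 0% at 2 h and 0% at 12 h of CHIRON removal, and 0% for the difference in response at both times. At an unadjusted p under 0.05 there were 2, 9 and 1 mitochondrial genes between the substrates at 0 h, 2 h and 12 h, and 3 for the difference in response at either time. Of the 21115 genes tested, 689 at 0 h and 617 at 12 h were at that level between the substrates, and 570 for the difference in response at 12 h. The counts at 2 h rest on the 1 stiff library of that time. The difference in response at 12 h was -0.56 ± 0.25 for mt-Nd4l, -0.50 ± 0.24 for mt-Atp8 and -0.46 ± 0.24 for mt-Cytb (edgeR adjusted p = 1 for each), so it was not shown that the response on soft substrates differed from that on stiff substrates.

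The pseudogenes were tested as genes of their own. After PD03 removal, 8 of the 9 pseudogenes tested rose at 12 h on either substrate by edgeR and by DESeq2. Of all genes tested, 11.2% rose on soft and 15.5% on stiff substrates by edgeR. The rises on soft substrates went from 0.35 ± 0.06 for Gm28437 to 1.02 ± 0.13 for Gm10222. The remaining one was Gm28438, the match of mt-Nd3, at -0.01 ± 0.07. On stiff substrates Gm10925 rose by 1.15 ± 0.08, Gm28661 by 1.13 ± 0.08, Gm28439 by 1.11 ± 0.09, Gm29216 by 0.96 ± 0.07, Gm13341 by 0.96 ± 0.08 and Gm13340 by 0.92 ± 0.07. Among mRNA genes, 6 of the 7 aligned by a pseudogene rose on soft substrates. Of the other 6, with mt-Atp8 counted here, 4 rose there (mt-Nd1, mt-Nd2, mt-Nd5 and mt-Cytb). On stiff substrates 6 of each rose. After CHIRON removal, 2 of the 9 pseudogenes fell at 12 h on soft substrates by edgeR, where 4.59% of all genes tested fell, and 0 by DESeq2. On stiff substrates 0 were called by either.

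A list of 58 symbols held nuclear genes that act on mitochondrial DNA and RNA. It also held regulators of nuclear genes, such as Nrf1, Gabpa and Pprc1, and the protease Lonp1. Some genes stand on it under more than a single symbol, such as Twnk and Peo1. In each experiment 53 were tested. After 12 h without PD03, 8 rose and 2 fell on soft substrates, where 11.2% of all genes rose and 12.3% fell, while for stiff substrates the counts were 7 and 5, where 15.5% rose and 16.4% fell. DESeq2 called 5 higher and 2 lower on soft and 6 higher and 3 lower on stiff substrates. The median log2 fold change of the list was 0.04 and 0.05, against 0.89 and 1.00 for the mitochondrial mRNA genes.

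Those with the smallest adjusted p on soft substrates were Pprc1, a coactivator of genes for mitochondrial function, which rose by 0.38 ± 0.05, Polrmt, the mitochondrial RNA polymerase (0.34 ± 0.08), and Ssbp1, the single-stranded DNA binding protein (0.32 ± 0.08). Nsun3, which modifies the anticodon of the mitochondrial methionine tRNA, fell by 0.41, and Pnpt1, an RNA-degrading enzyme, fell by 0.17. On stiff substrates Pprc1 (0.41 ± 0.05), Elac2, which cuts the 3′ ends of tRNAs (0.26 ± 0.05), and Peo1, the Twinkle helicase (0.41 ± 0.08), rose. Hsd17b10, a subunit of mitochondrial RNase P (-0.35 ± 0.07), Grsf1, a protein of mitochondrial RNA granules (-0.21 ± 0.04), and Mtif2, an initiation factor (-0.24 ± 0.07), fell.

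After 12 h without CHIRON, 0 of these 53 genes rose and 6 fell on soft substrates by edgeR, where 5.86% of all genes tested rose and 4.59% fell. On stiff substrates the counts were 0 and 3, where 5.48% rose and 4.41% fell. In either direction 14 and 17 had an unadjusted p under 0.05. Of all 21115 genes tested, 2518 rose and 2248 fell at that level on soft substrates, and 2461 and 2128 on stiff ones. From the list, DESeq2 called 0 higher on both substrates and 7 and 5 lower. Grsf1 fell on soft and stiff substrates, with log2 fold changes of -1.66 ± 0.08 (edgeR adjusted p = 3.79e-09) and -1.74 ± 0.08 (adjusted p = 1.75e-09), and so did Nsun3 (-0.85 ± 0.12 on each). Pprc1 fell by 0.29 ± 0.08 on soft, and Lrpprc, which stabilises mitochondrial mRNAs, by 0.35 ± 0.10 on stiff substrates. The list medians were -0.13 and -0.12, against -0.00 and 0.01 for all genes.

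Of 19 genes for mitochondrial aminoacyl-tRNA synthetases, 18 were tested. Gars and Kars on this list also encode the cytosolic enzymes. PD03 removal for 12 h had 4 higher and 1 lower on soft substrates, where 11.2% of all genes rose and 12.3% fell, and 2 higher and 2 lower on stiff substrates, where 15.5% rose and 16.4% fell. DESeq2 called 1 higher and 1 lower on soft and 2 and 2 on stiff substrates. Tars2, which charges the threonine tRNA, rose by 0.18 ± 0.06 and 0.32 ± 0.06, and Yars2 by 0.33 ± 0.09 and 0.30 ± 0.09; Hars2 rose by 0.27 ± 0.09 on soft substrates. Iars2 fell by 0.31 and 0.46, and Wars2 fell by 0.50 on stiff substrates. CHIRON removal for 12 h had 2 lower on each substrate, Iars2 (-0.37 ± 0.09 and -0.42 ± 0.09) on both, Kars (-0.27 ± 0.08) on soft and Tars2 (-0.36 ± 0.09) on stiff substrates, where 4.59% and 4.41% of all genes fell on soft and stiff substrates. None rose by edgeR or DESeq2, which called 2 and 3 lower, with 5 and 4 in either direction at an unadjusted p under 0.05 by edgeR. The counts of all genes at that level are those given above for 12 h without CHIRON.

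Short non-coding RNAs made in the nucleus served as a comparison with RNA that the mitochondrial genome does not encode, with 7 of 9 tested. After PD03 removal for 12 h the RNase P RNA Rpph1 fell by 0.34 on soft substrates, where 12.3% of all genes tested fell. The signal recognition particle RNAs Rn7s2 and Rn7s1 rose by 0.52 ± 0.15 and 0.51 ± 0.17 on stiff substrates, where 15.5% of all genes tested rose. DESeq2 called none of these 3 changes. Rmrp (-0.40 ± 0.17 and 0.14 ± 0.17), Rny3 (-0.72 ± 0.35 and -0.36 ± 0.36), Rny1 (0.02 ± 0.20 and 0.23 ± 0.21) and Terc (0.06 ± 0.17 and 0.22 ± 0.17) did not pass on soft or stiff substrates. At 12 h of CHIRON removal Rn7s1 (0.32 ± 0.09), Rn7s2 (0.31 ± 0.09) and Rpph1 (0.46 ± 0.14) rose on soft substrates, where 5.86% of all genes tested rose. On stiff substrates, where 5.48% rose and 4.41% fell, 0 of these RNAs were called by edgeR or DESeq2, with 1 at an unadjusted p under 0.05. Their levels also differed between the experiments, with Rpph1 at 2926 to 4958 CPM in PD03 removal and 47.5 to 78.0 in CHIRON removal, and Rn7s1 at 21.7 to 49.4 and 3702 to 5500.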

How the data were processed

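RNA of E14 mESCs was sequenced after Ribo-Zero depletion. Per the labels, the libraries were made with Nextflex kits; the study's methods name several kits without assigning them. The authors trimmed reads, aligned them to GRCm38 (mm10) with TopHat2 2.1.0 and counted them with featureCounts 1.5.0; the deposited counts are whole reads per gene, not normalised. The strand setting and the treatment of reads with several matches are not given in the sources used here. In the PD03 table, 12 further columns matched no sample and 23 rows were empty; neither were used.

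Genes were filtered with filterByExpr (minimum count 10, minimum total count 15), normalised by TMM and fitted with edgeR 4.0.16 in R 4.3.3 (quasi-likelihood, 6 groups per experiment). Adjustment was Benjamini-Hochberg over all genes tested, with a threshold of 0.05. Gene classes came from GENCODE M21, and pseudogenes were aligned with BLAST. The alternatives were DESeq2 1.42.0, its size factors, total counts, no filter, protein-coding genes only, replicate blocks, the discarded library added, and each library left out. The fits were tested on simulated data. The members and lists were chosen with earlier results of these data known. All mRNA and rRNA genes were named, as were tRNA genes that passed the filter or had the highest summed counts, all pseudogenes and short nuclear RNAs, and, of the other lists, up to 3 genes in each direction with the smallest adjusted p at 12 h. Depth was 16222196 to 31111260 counts per library used.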

Additional observations from a re-analysis of the deposited data

Results flagged for a closer look

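On soft substrates 9 mitochondrial mRNA genes (mt-Nd1, mt-Nd2, mt-Co1, mt-Co2, mt-Atp6, mt-Nd4l, mt-Nd4, mt-Nd5 and mt-Cytb) were higher in both 12 h libraries than in both 0 h libraries after PD03 removal and lower in both after CHIRON removal. The groups of the 2 experiments thus moved in opposite directions in every library, but the difference between the experiments was not tested, and the 2 removals were separate sets of libraries whose classes of RNA differed already at 0 h. On stiff substrates this held for 0 of the 13 genes. Of the 9 genes, edgeR called only mt-Nd4l and mt-Cytb lower at 12 h of CHIRON removal on soft substrates, and DESeq2 called 0. How many of all genes met the same rule was not counted.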

How the results depend on the processing

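The counts of called genes at 12 h of PD03 removal on soft substrates (10 mRNA, 2 rRNA and 1 tRNA) were the same under every alternative, and those on stiff substrates stayed at 11 or 12 mRNA genes and 2 rRNA genes, with 10 to 12 when 1 library was left out. All 54 called values of single genes kept their direction in 964 alternative values, of which 105 no longer passed the threshold. Without the low-count filter many counts were higher: soft 2 h of PD03 removal gave 9 mRNA and 2 rRNA genes, soft against stiff 1 mRNA gene at 0 h, 11 mRNA and 2 rRNA at 2 h and 10 mRNA and 1 rRNA at 12 h, and the difference in response 2 rRNA at 2 h and 2 mRNA and 1 rRNA at 12 h. For CHIRON removal that fit gave 12 mRNA, 2 rRNA and 3 tRNA genes lower at 12 h on soft substrates, 1 mRNA lower on stiff, 2 rRNA lower at 2 h on stiff, 2 mRNA between substrates at 0 h, 11 mRNA and 2 rRNA at 2 h, and, for the response, 2 rRNA at 2 h and 6 mRNA and 1 tRNA at 12 h. DESeq2 called 0 mRNA and 0 rRNA genes for soft at 2 h of PD03 removal, 3 and 1 for stiff at 2 h, 1 tRNA for stiff at 12 h, 0 between substrates, and 0 for soft at 12 h of CHIRON removal. Total counts without TMM gave 2 mRNA genes for soft at 2 h and 1 between substrates at 12 h of PD03 removal, and protein-coding genes alone gave 7 between substrates there and 6 for soft at 12 h of CHIRON removal. The cause of these changes was not tested.

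Leaving out 1 library gave 0 to 7 mRNA and 0 to 1 rRNA genes for soft at 2 h of PD03 removal, 3 to 10 and 1 to 2 for stiff at 2 h, 1 to 2 tRNA for stiff at 12 h, 0 to 1 mRNA and 0 to 1 rRNA between substrates at 2 h, 0 to 8 and 0 to 1 at 12 h, and 0 to 1 rRNA for the response at 2 h. For CHIRON removal it gave 0 to 9 mRNA, 0 to 2 rRNA and 0 to 2 tRNA genes for soft at 12 h and 0 to 2 mRNA for stiff at 12 h. The fits without 1 stiff 0 h library leave that group with 1 library, which is assumed to vary like the others.

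Pairing by replicate number was not seen (mean correlation of deviations -0.00427 for PD03 removal, -0.0252 for CHIRON removal and -0.0201 for tube numbers). With the replicate block 0 tRNA genes were called for soft at 12 h of CHIRON removal, and with the block by tube number 0 mRNA and 0 tRNA genes; it moved no other count of called members by more than 1.5 times. With the discarded library added, 0 mRNA and 0 tRNA genes were called there, the median of all genes for stiff at 2 h shifted to -0.13, and the genes called at 12 h fell from 2207 to 136 on soft and from 2088 to 138 on stiff substrates. Over all genes, no filter called 359 for soft at 2 h of PD03 removal in place of 226, between substrates 37 at 0 h in place of 0 (4 with protein-coding genes alone), 99 at 2 h in place of 12 and 153 at 12 h in place of 77, and 18 and 24 for the response in place of 1 and 0. For CHIRON removal it called 149 for soft at 2 h in place of 24, 97 for stiff at 2 h in place of 8, and 27, 105 and 18 between substrates and 28 and 16 for the response, each in place of 0. DESeq2 called 49 and 17 for soft and stiff at 2 h, protein-coding genes alone 15 for stiff, the replicate block 4 for stiff, the tube block 6 and 1, and 1460 and 1161 at 12 h, and the discarded library 0 and 0 at 2 h.

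The tRNA genes tested after PD03 removal, other than mt-Tl1, had 2 to 28 counts per library, and no group had more than 2 libraries.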
